A study of Homo sapiens with 16 samples.

Results

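The mitochondrial protein import machinery was followed through its mRNAs. Its members were taken as the protein-coding genes whose symbol starts with TIMM or TOMM, 27 genes, together with 10 genes named one by one (GRPEL1, PAM16, HSPA9, DNAJC19, CHCHD4, SAMM50, MTX1, MTX2, PMPCA and PMPCB). This gave 37 of the 58302 gene identifiers counted. RNA was sequenced from HEK293, an established human embryonic kidney cell line, in 16 libraries. Of each condition, 4 independent samples were split into cytoplasmic lysate (Input) and the pooled heavy fractions of a sucrose gradient (Polysome). In siRNAG5 cells Gemin5, an RNA-binding protein of the SMN complex that also binds ribosomes, was silenced with a small interfering RNA (siRNA) carried in by Lipofectamine. Ctrl cells had no Gemin5 siRNA. The labels call them untreated, while the paper's methods describe a control siRNA and a figure legend there names Ctrl the siRNA control. The labels and the paper were not reconciled here. All groups are of 1 cell line, and siRNAG5 cells keep part of their GEMIN5 mRNA, so that they model a lowered and not an absent Gemin5.

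Nearly all mitochondrial proteins are made on cytosolic ribosomes and imported. The TOM complex of the outer membrane is the entry gate, with receptors (TOMM20, TOMM22, TOMM70), the channel TOMM40 and small subunits. Behind it the SAM complex inserts barrel proteins into the outer membrane, the small TIM proteins escort hydrophobic proteins through the intermembrane space, CHCHD4 oxidises small cysteine proteins there, and TIM22 inserts carriers into the inner membrane. The TIM23 complex and its motor, driven by the chaperone HSPA9, pull proteins with a presequence into the matrix, where the peptidase PMPCA-PMPCB cuts the presequence off. The study named mitochondrial transport when it described the mRNAs lowered in these samples, so the direction given below is not independent evidence.

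Each library had between 11145324 and 24511299 reads on genes. GEMIN5 had 17.9 ± 2.32 CPM (reads scaled to library size; SD, n = 4) in Input Ctrl and 6.72 ± 0.529 in Input siRNAG5, and 7.44 ± 1.56 against 2.65 ± 0.495 in Polysome. Kidney and neuronal genes known from HEK293 were present in every group (0 of 6 at zero, 203 to 444 CPM summed). A list of 8 liver genes summed to 0.823 to 120 CPM in Input Ctrl and 64.5 to 134 CPM in Polysome Ctrl, but to 0.599 to 0.894 and 0.165 to 0.512 CPM in the siRNAG5 libraries, where 4 (Input: APOB, FGA, FGB, SERPINA1) and 5 (Polysome: APOB, FGA, SERPINA1, TF, TTR) of the 8 were at zero. The part of these genes in the differences between siRNAG5 and Ctrl was not tested. A list of 5 blood genes summed to 0.449 to 1.14 CPM in Input Ctrl and 1.33 to 2.13 CPM in Polysome Ctrl. In siRNAG5 it summed to 0.368 to 0.999 CPM in Input and 0.308 to 0.769 CPM in Polysome. At zero were 4 of the 5 in each siRNAG5 group, against 0 in Input Ctrl and 1 in Polysome Ctrl. On the second principal component of the Polysome libraries (28.49% of the variance), Ctrl 1, siRNAG5 1 and siRNAG5 4 stood apart from the other 5, and the main calls that rest on Polysome are given with and without these 3 libraries.

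Of the 37 members, 34 passed the filter on low counts in each comparison. TOMM20L, a TOMM20 copy, had 1 to 10 reads per library, and the readthrough gene TIMM23B-AGAP6 had 0 to 2. TOMM6, a small TOM subunit, was listed at 0 reads in all 16 libraries. By depth alone this allows up to 0.122 to 0.269 CPM, a limit that covers counting error only. Its annotation (chromosome 6, 41787662 to 41789898, GRCh38, GENCODE v44) is overlapped on the same strand by another coding gene, and reads that fit more than 1 gene were set apart by the authors. The annotation release the authors counted on was not used here, so this 0 may or may not measure its mRNA. TOMM5 (13 to 92 reads), PAM16 (7 to 38 reads), TIMM10B (120 to 389 reads), PMPCB and SAMM50 also have a coding gene on the same strand over them in GENCODE v44, and their levels may be uncertain for that reason. TIMM23 and TIMM23B, near-identical copies on chromosome 10, aligned over 650 transcript bases with 639 identical (98.3%). Reads shared by both copies would have been left uncounted.

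In Input Ctrl cells the level per length (CPM per kb of the canonical transcript) differed widely between members. TOMM7, a small subunit of the TOM complex, had 2082 ± 105 CPM per kb. TIMM8B and TIMM17B followed with 494 ± 47.3 and 493 ± 25.7, which do not differ beyond their spread. TIMM10 had 292 ± 24.9 and TIMM13 282 ± 19.3, again within each other's spread, and TOMM22 had 229 ± 19.9. TOMM40 (204 ± 16.5), TIMM17A (197 ± 11.5) and TIMM23 (188 ± 17.8) came next, each within 1 SD of its neighbour. The motor chaperone HSPA9 reached 60.2 ± 0.834 and the receptor TOMM70 10.9 ± 0.643 CPM per kb. Both alpha and beta subunits of the peptidase lay between them, with 58.1 ± 5.23 for PMPCA and 34.3 ± 2.21 for PMPCB. The members together took 0.498 to 0.522% of the reads on genes in Input Ctrl and 0.420 to 0.430% in Input siRNAG5. In Polysome they took 0.592 to 0.699% in Ctrl and 0.501 to 0.561% in siRNAG5. In both fractions every siRNAG5 library lay below every Ctrl library. Lower RNA per cell and fewer cells of a kind cannot be told apart in such bulk values.

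The first comparison asked which import mRNAs changed in total cytoplasmic RNA when Gemin5 was silenced. In Input, 12 of the 34 tested members were lower in siRNAG5 cells than in Ctrl and 0 were higher, where a member was called at an adjusted p under 0.05 (edgeR quasi-likelihood test, Benjamini-Hochberg over all genes) with a log2 fold change (log2 FC) beyond 0.5. Of all 14134 genes tested, 6.02% were called lower and 10.5% higher. The median log2 FC was -0.30 over the members and 0.04 over all genes, and 30 of 34 members had a negative value, against 46.5% of all genes. By the adjusted p alone, 23 members were lower and 2 higher (TOMM20 and PMPCB). Over all 14134 genes, 2695 were lower and 2535 higher by that measure. The groups did not overlap for 23 members, in either direction, against 34.2% of all genes. DESeq2 called 0 members higher too, and 2 had a positive log2 FC at an unadjusted p under 0.05.

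The small TIM proteins, the escorts of the intermembrane space, were called in part. TIMM10, TIMM10B, TIMM8B, TIMM8A and TIMM13 fell, 5 of a group of 7 that also holds TIMM9 and CHCHD4. TIMM10 (ENSG00000134809, chromosome 11, 57528464 to 57530803, minus strand) pairs with TIMM9 in the hexamer that carries metabolite transporters. Its Input Ctrl libraries had 188, 219, 192 and 181 CPM, and its siRNAG5 libraries 100, 100, 111 and 98.6 CPM. All 4 silenced libraries lay below all 4 Ctrl libraries, at 53.1% of the Ctrl level (log2 FC -0.91, SE 0.0702, adjusted p = 5.936e-11).

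TIMM8A and TIMM13 form the other hexamer of this kind, and loss of TIMM8A causes a deafness and dystonia syndrome. For TIMM8A (chromosome X, 101345661 to 101348742) Ctrl had 146, 154, 149 and 141 CPM and siRNAG5 70.7, 97.8, 86.4 and 89.8 CPM (log2 FC -0.76, SE 0.0777, adjusted p = 7.644e-09). For TIMM13 (chromosome 19, 2425625 to 2427586) Ctrl had 432, 510, 474 and 464 CPM and siRNAG5 310, 290, 309 and 274 CPM (log2 FC -0.65, SE 0.0654, adjusted p = 5.673e-09). Both pairs of groups were apart. TIMM8B (chromosome 11, 112084800 to 112086798), a close relative of TIMM8A, had 381, 428, 394 and 339 CPM in Ctrl and 215, 211, 246 and 220 CPM in siRNAG5 (log2 FC -0.78, SE 0.071, adjusted p = 1.207e-09). TIMM10B (chromosome 11, 6481501 to 6484681), which binds the hexamer to TIM22, was far scarcer, with 17.8, 19.2, 20.0 and 15.9 CPM in Ctrl and 7.99, 9.73, 11.6 and 10.9 CPM in siRNAG5 (log2 FC -0.84, SE 0.118, adjusted p = 1.572e-06). Neither gene's groups overlapped.

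The partner of TIMM10 was not called. TIMM9 had 129, 114, 116 and 107 CPM in Input Ctrl and 109, 113, 114 and 105 CPM in Input siRNAG5, overlapping groups with a log2 FC of -0.06 (SE 0.0675, adjusted p = 0.4957). CHCHD4, whose oxidation traps the small TIM proteins in the intermembrane space, had a log2 FC of -0.41 (SE 0.071, adjusted p = 3.048e-05), inside the fold limit.

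**Figure D1:**
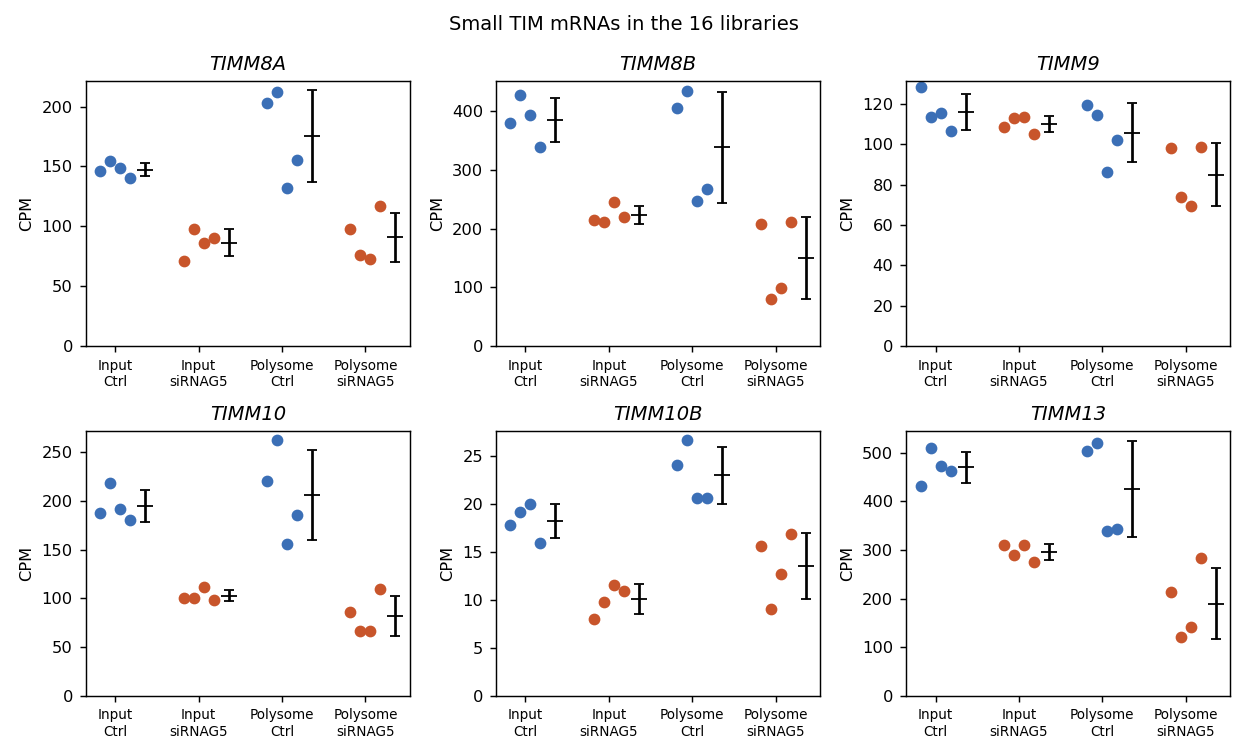
CPM of the 6 small TIM genes in the 16 libraries (vertical axes from 0), 4 points a group in Input and Polysome, with the mean and SD beside them; blue is Ctrl and orange siRNAG5. In every gene but TIMM9 the silenced Input libraries lie below all Ctrl libraries, as for TIMM10 with 181 to 219 CPM in Ctrl and 98.6 to 111 CPM in siRNAG5.

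In the TOM complex the central receptor and the channel fell while the other receptors were not called. TOMM22 (chromosome 22, 38681957 to 38685421), the receptor that also holds the complex together, had 469, 519, 444 and 426 CPM in Ctrl and 260, 276, 273 and 256 CPM in siRNAG5. Its groups were apart and siRNAG5 stood at 57.9% of Ctrl (log2 FC -0.79, SE 0.066, adjusted p = 2.45e-10). TOMM40 (chromosome 19, 44890569 to 44903689), the channel itself, went from 320, 388, 374 and 359 CPM to 227, 207, 202 and 219 CPM (log2 FC -0.74, SE 0.0681, adjusted p = 1.355e-09). The presequence receptor TOMM20 had a log2 FC of 0.19 (SE 0.0646, adjusted p = 0.02015), inside the fold limit, and the receptor TOMM70 of 0.05 (adjusted p = 0.6377). The small subunit TOMM7 had 933, 932, 912 and 837 CPM in Ctrl and 853, 861, 815 and 780 CPM in siRNAG5, which overlapped (log2 FC -0.11, adjusted p = 0.1366). TOMM40L and TOMM5 were not called (-0.27 and -0.18). Thus 2 of 7 tested TOM members were lower.

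At the inner membrane TIMM23 and TIMM22 were among the called genes. TIMM23 (chromosome 10, 45972489 to 46003742), the core of the presequence translocase, had 215, 254, 220 and 205 CPM in Ctrl and 130, 143, 150 and 146 CPM in siRNAG5, without overlap (log2 FC -0.64, SE 0.0714, adjusted p = 3.745e-08). TIMM22, the core of the carrier translocase, had a log2 FC of -0.63 (SE 0.0732, adjusted p = 7.515e-08), and its partner TIMM29 of -0.32 (adjusted p = 0.002644). TIMM21, which links TIM23 to the respiratory chain, was called at -0.50 (SE 0.0831, adjusted p = 1.819e-05), a call at the fold limit that was lost without Ctrl 2, Ctrl 3 or siRNAG5 1, without the filter on low counts (-0.48), with length and GC offsets (-0.49) and with 1 surrogate variable (-0.50). TIMM17A was not called, just inside the fold limit at -0.47 (adjusted p = 8.717e-06). Its paralog TIMM17B at -0.18 (adjusted p = 0.03055) and the presequence receptor TIMM50 at -0.39 (adjusted p = 1.467e-05) were not called either. TIMM23B, with 18 to 74 reads per library, was not called. The TIM23 complex therefore had 2 of 6 members lower and TIM22 1 of 2.

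Of the motor and the peptidase, 7 genes in all, only the nucleotide exchange factor of the motor was called. GRPEL1, which renews the nucleotide on HSPA9, fell to 67.3% of Ctrl (log2 FC -0.57, SE 0.0669, adjusted p = 8.095e-08). HSPA9 itself had 266, 260, 269 and 266 CPM in Ctrl and 241, 255, 265 and 251 CPM in siRNAG5 (log2 FC -0.05, SE 0.0597, adjusted p = 0.5189), and these groups overlapped. TIMM44, DNAJC19 and PAM16 were not called, at -0.23, -0.28 and 0.20. The 2 subunits of the peptidase had log2 FC of opposite sign, -0.28 for PMPCA (SE 0.0709, adjusted p = 0.002004) and 0.25 for PMPCB (SE 0.0654, adjusted p = 0.002617), each with groups that did not overlap and each inside the fold limit. MTX1, a metaxin of the SAM complex, was called lower at -0.52 (SE 0.073, adjusted p = 1.644e-06), which was lost without Ctrl 2, siRNAG5 3 or siRNAG5 4. MTX2 and the barrel SAMM50 were not called (-0.16 and -0.20). The cytosolic co-chaperone TOMM34 and the complex I assembly factor TIMMDC1, members by symbol, stood at -0.41 and -0.21 and were not called.

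**Figure D2:**
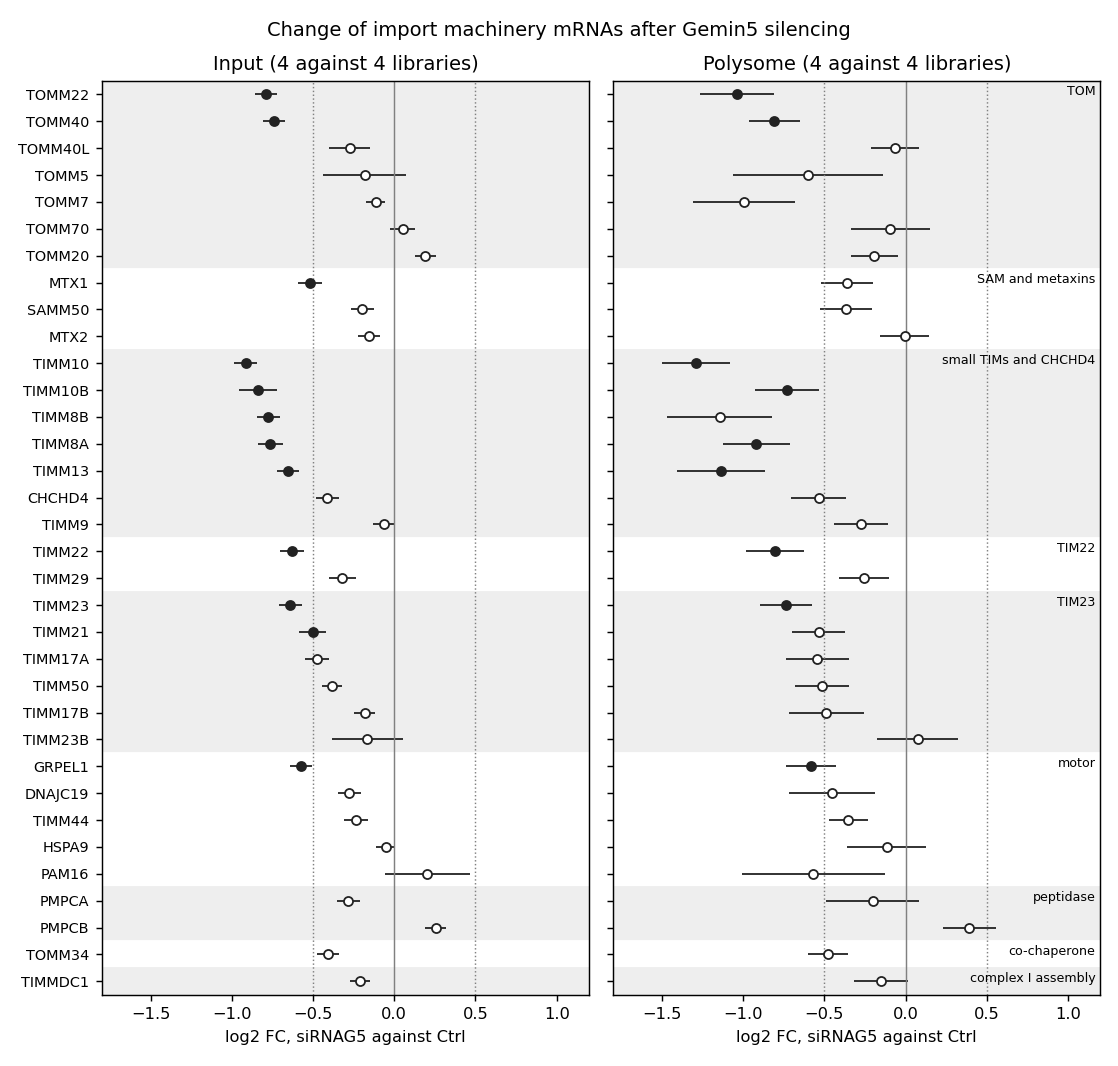
Log2 FC of siRNAG5 against Ctrl for the 34 tested members, Input on the left and Polysome on the right, grouped by role; points are edgeR estimates from 4 against 4 libraries, bars 1 SE, filled points called genes and dotted lines the fold limit of 0.5. In Input 12 filled points lie on the negative side, led by TIMM10 at -0.91, and none on the positive side.

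Other mitochondrial gene lists were counted alongside. Among 16 further import factors 3 were lower and 0 higher, with a median log2 FC of -0.13. These were DNAJC11, a partner of the outer membrane insertion machinery (-0.61, SE 0.117, adjusted p = 0.0001236), MTCH2, an insertase of the outer membrane (-0.56, SE 0.0646, adjusted p = 7.22e-08) and IMMP1L, a subunit of the inner membrane peptidase (-0.51, SE 0.0851, adjusted p = 2.084e-05). Of 7 genes of MICOS, the complex that shapes cristae, 0 passed both limits, and 3 were lower and 1 higher by the adjusted p alone (median -0.33). Among 10 matrix chaperones and proteases only HSPE1, the partner of the chaperonin HSPD1, was called, at -0.77 (SE 0.0713, adjusted p = 1.543e-09), and the median was -0.16. Whether these shares differ from that of the members was not tested.

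The promoters of the members were searched for short motifs as a description only, and a link to the changes above was not tested. Windows of 300 bases, from 250 before to 50 after the start of transcription (RefSeq, GRCh38.p14), were found for 34 of the 37 members, and GRPEL1, TIMM8B and TOMM5 were not matched. Motifs were searched as exact letters on both strands, and 0 pairs of matches overlapped each other. The ETS core CCGGAAG stood in 15 of 34 windows (44.1%), against 22.7% of the tested genes with a window and 12.2% of all promoters. The NRF1 core, with any base at its centre, stood in 7 (20.6%, against 13.9% and 7.0%), the E-box CACGTG, a site read by MYC family factors, in 4 (11.8%, against 12.7% and 8.8%) and the YY1 site AAGATGGC in 3 (8.8%, against 6.6% and 3.5%). These are counts of letters and not sites shown to be bound. TIMM23B and TIMM23B-AGAP6 share one window and are counted as 2. The 34 members with a window are not the 34 tested ones, as they include the untested TOMM6, TOMM20L and TIMM23B-AGAP6. Of these, TOMM6 and TIMM23B-AGAP6 are among the 15 with the ETS core, whereas the 22.7% covers tested genes only.

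Of the 10 members called lower in Input that have a window, 5 held the ETS core, 2 the E-box, 1 the NRF1 core and 0 the YY1 site. The 4 E-boxes are printed because they fell on both sides of the call, TIMM10 and TIMM8A being lower and HSPA9 and TOMM20 not. Each line is read 5′ to 3′ along the gene, with the motif in capitals and 10 bases on each side.
TIMM10 (chr11:57530740-57530765, minus strand): ggaagtaaccCACGTGcttccgctgg
TIMM8A (chrX:101348699-101348724, minus strand): gtcgcggagaCACGTGaaggtcggtg
HSPA9 (chr5:138575405-138575430, minus strand): cccctcacccCACGTGgttggaggtt
TOMM20 (chr1:235128990-235129015, minus strand): agtccgtggtCACGTGcaaattcccg
Beyond the core the 4 flanks are not alike. Counted from the RefSeq start of transcription, the E-box lies next to it in TIMM10 (offset -1) but farther from it in TOMM20 (offset -168). In GENCODE v44, on the minus strand, TIMM10 starts at 57530803, TIMM8A at 101348742 and HSPA9 at 138575675. By that annotation the E-boxes of these genes, called or not, lie inside the gene. TOMM20 starts at 235128837, so its E-box lies before the gene.

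The ETS core is shown for the 5 lower members, 1 window each, in capitals on whichever strand it lies (CTTCCGG is the reverse complement of CCGGAAG).
TIMM10 (chr11:57530793-57530819, minus strand): gtatttaattCCGGAAGcgagtttgaa
TIMM10B (chr11:6481446-6481472, plus strand): cgagaggttaCTTCCGGggcggcaccg
TIMM13 (chr19:2427580-2427606, minus strand): gggcggcccgCTTCCGGcgcagttagt
TIMM23 (chr10:45972431-45972457, plus strand): gcgcttccagCTTCCGGggcgcacatt
TOMM22 (chr22:38681948-38681974, plus strand): ctcctttccgCTTCCGGtgtcccctac
The core lay within 55 bases of the RefSeq start of transcription in all 5 (offsets -55, -45, -10, -48 and 1). Members that were not called carried it too, among them the receptors TOMM20 and TOMM70 and the peptidase subunit PMPCB.

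The second comparison asked the same of RNA in heavy polysomes. Here 9 of 34 members were lower in siRNAG5 than in Ctrl and 0 higher, against 4% and 3.95% of the 14420 genes tested (1 member was higher at an unadjusted p under 0.05, and DESeq2 called 0 higher). The median log2 FC was -0.50 for the members and 0.03 for all genes, and 32 of 34 members had a negative value, against 46.9% of all genes. Groups did not overlap for 17 members, against 18.3% of all genes. The spread between libraries was wider than in Input, with a biological coefficient of variation of 0.2159 against 0.08062. All 9 (GRPEL1, TIMM10, TIMM10B, TIMM13, TIMM22, TIMM23, TIMM8A, TOMM22 and TOMM40) were also among the 12 of Input, that is 9 of 9 in Polysome and 9 of 12 in Input, and the 2 fractions came from the same cultures. MTX1, TIMM21 and TIMM8B were called in Input alone, which does not show that the fractions differ.

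TIMM10 was again first. Its Polysome Ctrl libraries had 221, 262, 156 and 185 CPM and its siRNAG5 libraries 85.8, 66.6, 66.6 and 109 CPM, which is 40.8% of Ctrl (log2 FC -1.29, SE 0.21, adjusted p = 0.008211). TIMM13 had 503, 520, 339 and 343 CPM in Ctrl and 213, 121, 141 and 283 CPM in siRNAG5 (log2 FC -1.14, SE 0.271, adjusted p = 0.02974). TOMM22 went from 598, 571, 389 and 386 CPM to 267, 173, 193 and 291 CPM (log2 FC -1.04, SE 0.227, adjusted p = 0.02154). In each of the 3 genes the groups were apart, though Ctrl 1 and 2 lay above Ctrl 3 and 4, and siRNAG5 1 and 4 above siRNAG5 2 and 3. TIMM8A, with 203, 213, 132 and 156 CPM in Ctrl and 97.9, 75.7, 72.6 and 117 CPM in siRNAG5, had the same order of libraries (log2 FC -0.92, SE 0.205, adjusted p = 0.02281).

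TOMM40, TIMM22 and TIMM23 fell in Polysome as well. TOMM40 had a log2 FC of -0.81 (SE 0.156, adjusted p = 0.01466), TIMM22 of -0.80 (SE 0.179, adjusted p = 0.02279) and TIMM23 of -0.73 (SE 0.16, adjusted p = 0.02139). TIMM17A (-0.54, edgeR adjusted p = 0.09865) and TIMM17B (-0.49, adjusted p = 0.1935) were not called. GRPEL1 was called at -0.58 (adjusted p = 0.04, or 0.06548 with the replicate number as a block) and TIMM10B at -0.73 (adjusted p = 0.04446). TIMM8B had -1.14 (SE 0.323) with groups that did not overlap and missed the threshold (adjusted p = 0.05072). HSPA9, TOMM70, TOMM20 and MTX2 were not called, at -0.12, -0.09, -0.19 and -0.00. Beyond the members, GRPEL2, a paralog of GRPEL1, was the 1 of 16 further import factors that was called and rose (log2 FC 0.72, SE 0.135, adjusted p = 0.01342), chosen for mention after its value was seen. Of MICOS, CHCHD3 alone was lower (-0.54, adjusted p = 0.04496), and 0 of 10 matrix chaperones and proteases were called.

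These Polysome calls leaned on single libraries. Without Ctrl 2, 1 member was called lower, TIMM10, which was the only one kept in 8 of 8 fits that left out 1 library. Without siRNAG5 2 or siRNAG5 3, 2 members were called, and without siRNAG5 1, 4. Calls over all genes fell in these fits too, from 577 lower with all libraries to 113 without Ctrl 2, 245 without siRNAG5 2, 245 without siRNAG5 3 and 254 without siRNAG5 1. Without the 3 libraries that stood apart, Ctrl 2, 3 and 4 were set against siRNAG5 2 and 3, a choice made after seeing the data. There 16 members were lower (12.1% of all genes) and 0 higher (9.02% of all genes). TIMM10 stood at -1.54 (SE 0.216, edgeR adjusted p = 0.00115) and TIMM13 at -1.56 (SE 0.226, adjusted p = 0.001366). In both genes, and in TOMM22 and TIMM8A, the siRNAG5 libraries left out were the highest of their group, so larger folds follow in part from that choice. TIMM8B was then called at -1.77 (adjusted p = 0.001176). The other 7 genes called with all libraries were called there as well, TOMM22 at -1.25, TIMM8A at -1.12, TIMM10B at -1.01, TIMM22 at -0.94, TOMM40 at -0.93, TIMM23 at -0.79 and GRPEL1 at -0.68 (adjusted p from 0.002486 for TIMM22 to 0.01647 for GRPEL1).

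Few members followed the split between these 3 libraries and the other 5. HSPA9, PMPCA and TOMM70 were lower in the 3 libraries than in each of the other 5 (3 of 34 members, 8.82%, against 13.3% of all genes), and 0 members were higher (7.47% of all genes). For HSPA9 the Polysome Ctrl libraries had 79.8, 122, 145 and 157 CPM and the siRNAG5 libraries 85.2, 152, 131 and 82.2 CPM. For PMPCA they had 31.6, 67.0, 85.3 and 79.9 CPM against 43.4, 72.3, 66.7 and 38.9 CPM. In both genes the split ran across the treatments, along Ctrl 1, siRNAG5 1 and siRNAG5 4. Without these libraries the treatment log2 FC was 0.05 for HSPA9, -0.10 for PMPCA and 0.09 for TOMM70, none of them called.

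**Figure D3:**
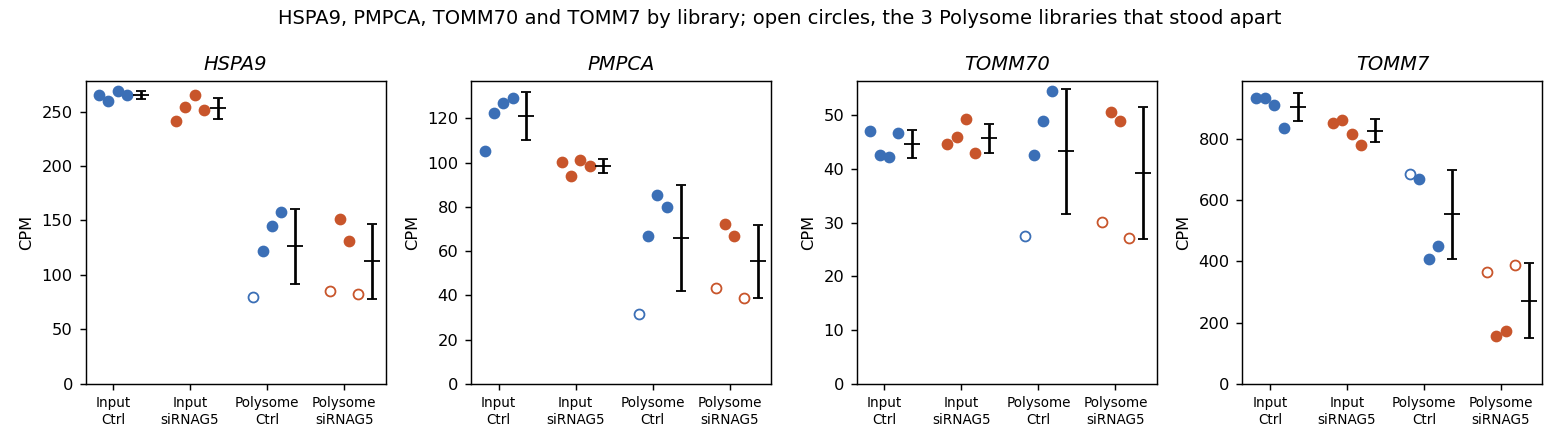
CPM of HSPA9, PMPCA, TOMM70 and TOMM7 in the 16 libraries (vertical axes from 0), with the mean and SD of each group of 4; open circles are the 3 Polysome libraries that stood apart. The open circles of HSPA9 lie at 79.8, 85.2 and 82.2 CPM below all other Polysome libraries, whereas those of TOMM7 lie among the higher values of their group.

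The third question was how far each import mRNA was present in heavy polysomes relative to total RNA. These ratios are relative to the other mRNAs of each library and depend on how libraries are scaled to each other (TMM in edgeR). Without that scaling, the members' summed share of reads on genes was higher in Polysome than in Input, unlike the median ratios below. It was 0.592 to 0.699% against 0.498 to 0.522% in Ctrl, and 0.501 to 0.561% against 0.420 to 0.430% in siRNAG5. With RLE size factors the counts of members called were the same as those below. In Ctrl cells 8 of 34 members were lower in Polysome than in Input and 0 higher (edgeR; 4 were higher at an unadjusted p under 0.05, and DESeq2 called 0 higher), against 18.8% and 20.8% of all 13666 genes. The median log2 ratio was -0.11 for the members and -0.03 for all genes, and 13 members had groups without overlap, against 44.4%. In siRNAG5 cells 9 were lower and 1 higher, against 21.2% and 23.9% of 14795 genes, with a median of -0.20 and 14 members without overlap, against 50.4%. The shares of members called lower were near these backgrounds. Without the 3 libraries that stood apart, 8 were lower and 0 higher in Ctrl, against 19.8% and 21.9% of 13910 genes, and 11 were lower and 1 higher (TIMM23B) in siRNAG5, against 23.5% and 29.7% of 15361 genes.

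The lowest ratios in Ctrl were those of PMPCB, HSPA9, PMPCA, SAMM50 and TIMM44. PMPCB had 138, 125, 144 and 129 CPM in Input Ctrl and 42.3, 61.0, 62.9 and 63.7 CPM in Polysome Ctrl (log2 ratio -1.21, SE 0.134, adjusted p = 3.69e-06). HSPA9, from the Input and Polysome values already given, had a log2 ratio of -1.06 (SE 0.166, adjusted p = 8.192e-05). PMPCA followed at -0.87 (SE 0.214, adjusted p = 0.003329), SAMM50 at -0.81 (SE 0.138, adjusted p = 0.00018) and TIMM44 at -0.75 (SE 0.113, adjusted p = 5.6e-05). For all 5 the fractions did not overlap. The ratios in siRNAG5 cells were -1.03, -1.08, -0.74, -0.93 and -0.83 in the same order, and all 5 were called there too, together with TOMM40 and TOMM7. In siRNAG5 cells without Polysome libraries 1 and 4, and with every Input library kept, PMPCA had -0.33 and was not called (adjusted p = 0.001496, inside the fold limit). HSPA9 was called there at -0.66 (SE 0.0803, edgeR adjusted p = 4.758e-07).

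At the other end, TOMM34 had 103, 102, 95.8 and 98.9 CPM in Input Ctrl and 132, 138, 123 and 126 CPM in Polysome Ctrl (log2 ratio 0.39, SE 0.107, adjusted p = 0.006948). TOMM20 had 310, 274, 278 and 287 CPM in Input Ctrl and 361, 380, 339 and 373 CPM in Polysome Ctrl (log2 ratio 0.35, SE 0.117, adjusted p = 0.02177). In Ctrl cells both genes were higher in every Polysome library than in any Input library, and both stayed inside the fold limit. In siRNAG5 cells the fractions of TOMM34 were apart too (log2 ratio 0.36, adjusted p = 0.006495), whereas those of TOMM20 overlapped (log2 ratio 0.01, adjusted p = 0.9518). The 1 member called higher was TIMM10B in siRNAG5 cells, with 7.99, 9.73, 11.6 and 10.9 CPM in Input and 15.6, 9.01, 12.7 and 16.8 CPM in Polysome. These groups overlapped, and the log2 ratio was 0.50, on the limit (SE 0.191, adjusted p = 0.04392). The call was lost in 7 of 8 fits that left out 1 library and without Polysome libraries 1 and 4 together (adjusted p = 0.1322). With the replicate number as a block TIMM10B was not called either (0.48, adjusted p = 0.05136), and 3 more members were called lower in siRNAG5 cells, TOMM5 at -0.91 (adjusted p = 0.03085), TIMM8B at -0.62 (adjusted p = 0.04806) and DNAJC19 at -0.51 (adjusted p = 0.0478).

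TOMM7, described here after its values were seen, had the lowest ratio of all members in siRNAG5 cells. Its gene (ENSG00000196683, chromosome 7, 22812628 to 22822849, minus strand) has a coding length of 165 nt and a transcript of 434 nt. Polysome Ctrl libraries had 687, 670, 409 and 450 CPM and Polysome siRNAG5 libraries 365, 157, 174 and 390 CPM, while the Input groups overlapped. Polysome lay below Input in every library of both treatments, with a log2 ratio of -0.69 in Ctrl (SE 0.174, adjusted p = 0.003874) and -1.53 in siRNAG5 (SE 0.26, adjusted p = 0.0004188). The treatment log2 FC in Polysome was -0.996 (SE 0.314), with groups apart and an adjusted p of 0.06826. Over 8 alternatives that p ranged from 3.551e-06 to 0.07127, and 7 of them called the gene lower, but only 1 of 8 fits that left out 1 library did. Without the 3 libraries that stood apart the treatment log2 FC was -1.57 (SE 0.235, adjusted p = 0.001513), and the ratio in siRNAG5 cells was -2.14 (SE 0.0825, adjusted p = 3.183e-14). Of Polysome siRNAG5 these edgeR fits kept only libraries 2 and 3, the lowest of their group, and they were chosen after seeing the data.

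The last comparison tested whether the change in Polysome differed from that in Input. Of 34 members 0 were called in either direction by edgeR, as were 0 of 14958 genes (background 0%), and DESeq2 called 0 members. The median difference was -0.15 for the members and -0.06 for all genes. TOMM7 (-0.90, SE 0.337, unadjusted p = 0.01485, adjusted p = 0.5315) and TOMM20 (-0.41, SE 0.149, unadjusted p = 0.01245, adjusted p = 0.5203) were the 2 below an unadjusted p of 0.05. Over all 14958 genes, 701 were lower and 388 higher at that unadjusted p, a share near that of the members. TIMM13 stood at -0.50 (SE 0.29) and TIMM10 at -0.40 (SE 0.226). Without the 3 libraries that stood apart, 5 members were lower (TOMM7 at -1.48, TIMM8B at -1.02, TIMM13 at -0.93, TIMM10 at -0.65 and TOMM20 at -0.53) and 0 higher, against 4.3% and 0.691% of 15343 genes. In Polysome that fit kept only Ctrl 2, 3 and 4 and siRNAG5 2 and 3. With 1 surrogate variable, or without the filter on low counts, TOMM7 alone was called.

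Coding length ordered part of these values. Across the 34 members, which share libraries and depth and are not independent replicates, the treatment log2 FC in Polysome rose with coding length (Pearson r = 0.623, Spearman rho = 0.633; rho = 0.309 over 12264 genes), and so did the difference between fractions (r = 0.608, rho = 0.593; rho = -0.0 over 12436 genes). In Input the members had r = 0.266 and rho = 0.26 (rho = 0.35 over 11884 genes). The Ctrl ratio of Polysome to Input ran the other way (r = -0.433, rho = -0.374, against rho = 0.058 over 11746 genes). The siRNAG5 ratio had r = -0.049 and rho = -0.094 (rho = 0.062 over 12349 genes). With transcript length instead, the Polysome change had r = 0.504 and rho = 0.469 in the members (rho = 0.312 over 14371 genes). The difference had r = 0.626 and rho = 0.453 (rho = 0.189 over 14898 genes), and the Ctrl ratio r = -0.06 and rho = -0.006 (rho = 0.412 over 13628 genes). With GC content, the difference had rho = -0.059 in the members and -0.325 over 14898 genes. In Ctrl the lowest ratios were those of PMPCB and HSPA9, among the longest in coding length, but TOMM70 with 1824 nt stood at -0.03. TOMM7, among the shortest, stood at -0.69. With offsets for transcript length and GC content in the fit, TOMM7, TOMM40 and MTX1 were no longer called in Ctrl (log2 ratios of -0.18, -0.28 and -0.28), TIMM50 was called lower (-0.56, adjusted p = 0.005485) and CHCHD4, TOMM34, TIMM10 and TIMM8A were called higher (0.58, 0.55, 0.53 and 0.52).

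**Figure D4:**
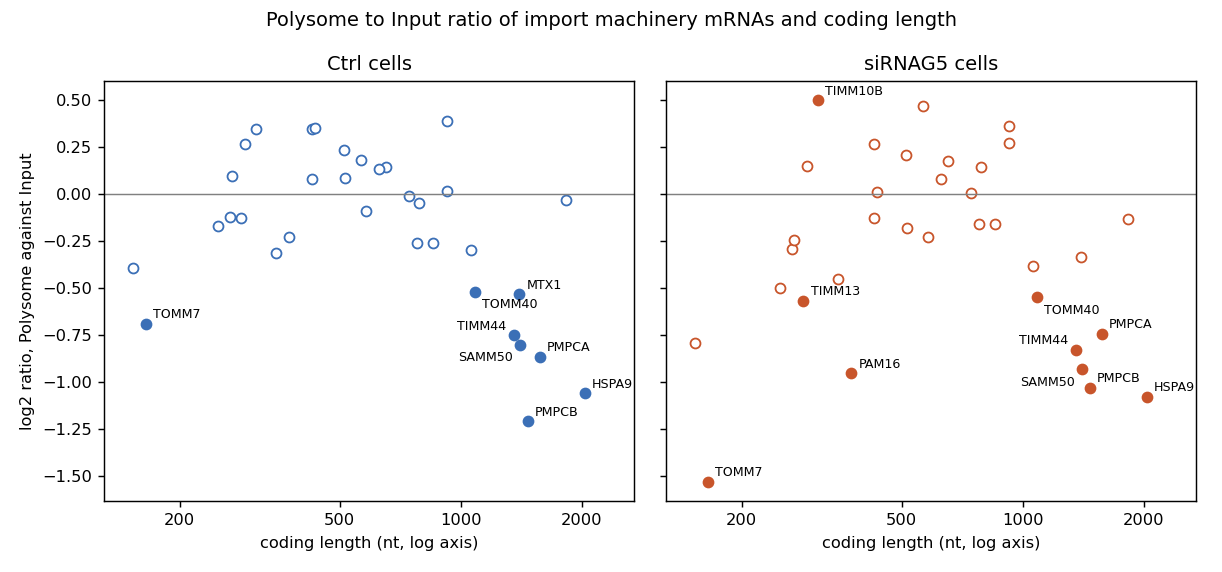
Log2 ratio of Polysome to Input against coding length (nt, log axis) for the 34 tested members in Ctrl and siRNAG5 cells; filled points were called and are named. In Ctrl the 8 filled points are all negative and, but for TOMM7 at 165 nt, belong to coding lengths of 1083 nt or more, and in siRNAG5 TOMM7 reaches -1.53.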

How the data were processed

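The authors made stranded polyadenylated-RNA libraries (TruSeq), aligned paired reads to GRCh38 with STAR 2.5.3a and counted reads on Ensembl genes with QoRTs. The deposited values are whole-number read counts that were not normalized, one file per library. Reads aligned to several places (4.88 to 42.4% of a library, most in Polysome) or to more than 1 gene (4.14 to 7.41%) were listed by the authors apart from genes and stayed out of library sizes. Genes were named by GENCODE v44. Here edgeR 4.0.16 (R 4.3.3; filterByExpr, TMM, quasi-likelihood test, no covariates) was fitted to all genes of each comparison, and the difference between fractions to all 16 libraries. A gene was called where its log2 FC passed 0.5 in size and its adjusted p (Benjamini-Hochberg) lay below 0.05. CPM are scaled by TMM over all 16 libraries, whereas log2 FC come from each comparison's own scaling. The members and lists were chosen with earlier results of these data known. Values per library are given for the called members with the 8 largest changes in Input and the 4 largest in Polysome, for members called in the difference or called higher, and for the 2 highest and 2 lowest Ctrl ratios. TIMM9, TOMM7 in Input and Polysome, PMPCA and HSPA9 in Input were added after their values were seen. Alternatives were DESeq2 1.42.0, RLE size factors, no filter, the replicate block, length and GC offsets, 1 surrogate variable (sva 3.50.0), all 16 libraries in 1 fit, each library left out, and, chosen after seeing the data, 3 Polysome libraries left out. The last kept Polysome Ctrl 2, 3 and 4, Polysome siRNAG5 2 and 3, and every Input library. The 4 samples of a condition are independent by the methods, and each was split into Input and Polysome. The labels do not say whether equal numbers in the fractions mark 1 sample, and not every same-numbered pair correlated above 0.1, so the main fits carry no block. Depth sets the precision of the scarcest members. Scripts were tested on simulated counts. Protein sequences were not used here.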

Additional observations from a re-analysis of the deposited data

Results flagged for a closer look

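In 8 of 136 pairs of a member and a group of 4, the highest or lowest library stood far from the other 3 (Dixon's ratio above its 95% critical value), where chance alone flags about 1 in 20. Library siRNAG5 4 of Polysome, one of the 3 that stood apart, was the high value for TOMM40 (177.7 CPM against 120.3 to 127.8), GRPEL1 (173.7 against 136.4 to 138.6) and TIMM23 (160.9 against 134.0 to 136.5), and the low value for SAMM50 (61.98 against 77.94 to 80.06). All 3 high values remained below every Polysome Ctrl library of their gene. Ctrl 1 of Polysome was low for PMPCB, at 42.3 CPM against 60.98 to 63.65. In Input, SAMM50 was high in Ctrl 2 (196.4 against 167.5 to 168.8), TIMM10 in siRNAG5 3 (111.1 against 98.62 to 100.3), and TIMM17A was low in siRNAG5 1 (189.3 against 241.8 to 249.7).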

How the results depend on the processing

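In Input, the count of members lower in siRNAG5 stayed within 1.5 times of 12 under each alternative run, and 10 to 13 when 1 library was left out. In Polysome, 9 became 16 with DESeq2, 17 with all 16 libraries in 1 fit and 16 without the 3 libraries that stood apart, and 1 to 12 with 1 library left out. Members higher in Polysome than in Input went from 0 to 4 in Ctrl with length and GC offsets. In siRNAG5 cells they went from 1 to 2 with these offsets, to 0 with the replicate block or all 16 libraries in 1 fit, and to 0 to 1 with 1 library left out. Members lower in the difference between fractions went from 0 to 1 without the filter on low counts, to 1 with 1 surrogate variable and to 5 without the 3 libraries. The cause was not tested. No member reversed a call. The block also added TIMM8B and TOMM7 in Polysome, and TIMM8B, TOMM5 and DNAJC19 in the siRNAG5 ratio. Same-numbered samples correlated at -0.502 to 0.46 in their deviations from group means, with both extremes between Polysome Ctrl and Polysome siRNAG5. Between Input and Polysome of the same treatment the correlations ran from -0.201 to 0.218. The numbers were not taken as pairs.

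Over all genes, the 1146 calls in Polysome (577 lower, 569 higher) became 1971 with DESeq2 (1200 lower, 771 higher), 1766 without the filter, 1783 with offsets, 2961 with 1 surrogate variable, 2597 with all libraries in 1 fit and 3115 without the 3 libraries, and 189 without Ctrl 2. For the difference, 0 became 30, 57, 2 and 352 (DESeq2, no filter, offsets, surrogate variable) and 765 without the 3 libraries. Low read numbers limit TOMM5, PAM16 and TIMM23B.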

Other observations

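Beyond the machinery itself, the ratio of Polysome to Input in Ctrl cells was called lower for 5 of 10 matrix chaperones and proteases and higher for 0 of them, with a median log2 ratio of -0.51, against 18.8% and 20.8% of all genes. HSPD1, the chaperonin that folds imported matrix proteins, stood at -1.05 (SE 0.177, adjusted p = 0.000156, edgeR) and the HSP90 relative TRAP1 at -0.83 (SE 0.143, adjusted p = 0.0001906). Among further import factors OXA1L, the insertase of the inner membrane, stood at -1.43 (SE 0.136, adjusted p = 7.898e-07), and GRPEL2 at 1.14 (SE 0.128, adjusted p = 3.908e-06). IMMT, the core of MICOS, stood at -1.24 (SE 0.155, adjusted p = 1.079e-05). These genes were chosen for mention after their values were seen.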
